A study of Mus musculus with 4 samples.

Results

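Glycolysis and hypoxia response genes were examined in mouse embryoid body cells sorted by Flk1, with and without Snai1. The set is a list of 34 genes: 16 glycolytic enzymes, 3 transporters of glucose or lactate and 15 other genes known to be induced by low oxygen. Of the 34 genes, 30 had a probe set named for them alone, out of 17097 genes named on the arrays. Eno1, Gpi1 and P4ha1 were not analysed here, nor was Pgam1, whose probe set is also paired with a pseudogene. Where a gene had several probe sets, the one with the brightest mean signal was used.

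Flk1+ and Flk1- cells of a control line and of a Snai1 knockout line make 4 groups, each with 1 array. Sets of 4 values below list the control fractions before the knockout fractions, and within a genotype Flk1+ before Flk1-. Control cells carry the genotype label F/F. Both lines were embryonic stem cells grown in hanging drops and then in suspension, so that they differentiated as embryoid bodies until day 4, when an antibody against Flk1 divided them. The knockout Flk1- sample is given as day 4 in one label and day 5 in another, and how the allele was made and how many clones were used are not given in the sources used here. Every value below is a log2 expression value or a difference of them, and no difference has a replicate check, a test or a p-value.

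Glycolysis splits glucose into pyruvate, and lactate dehydrogenase turns pyruvate into lactate when cells do not pass it on to the mitochondria. When oxygen is low, the prolyl hydroxylases encoded by the Egln genes stop marking HIF alpha subunits for destruction, and HIF then binds short hypoxia response elements and raises the transcription of many enzymes and transporters of this pathway. Pluripotent stem cells are known for a high rate of glycolysis, and oxygen levels shape how mesoderm gives rise to blood and vessels.

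The promoters below show the letters through which HIF can act. They are those of the members furthest apart between Flk1+ and Flk1- knockout cells, with Eno2, which stood apart in other comparisons, and Ldha and Pgk1, chosen after their values were seen because they hardly differed. Hk1 was also among the former; its first window held no match before the start and is not printed. Each sequence is the 250 bases before a RefSeq transcription start in GRCm38.p6, written 5′ to 3′ on the strand of the gene, from the first window listed for the gene. Capitals mark the core of the hypoxia response element, ACGTG or GCGTG on either strand, and would also mark a Snail-type E-box, CAGGTG or CACCTG, of which these stretches hold 0. Overlapping matches count as 1. The positions are chr8:45999851-46000100 (minus strand) for Ankrd37, chr6:71632918-71633167 (minus strand) for Kdm3a, chr13:6648772-6649021 (minus strand) for Pfkp and chr11:78322823-78323072 (plus strand) for Aldoc. They are chr6:124769674-124769923 (minus strand) for Eno2, chr7:46845554-46845803 (plus strand) for Ldha and chrX:106186850-106187099 (plus strand) for Pgk1.
Ankrd37: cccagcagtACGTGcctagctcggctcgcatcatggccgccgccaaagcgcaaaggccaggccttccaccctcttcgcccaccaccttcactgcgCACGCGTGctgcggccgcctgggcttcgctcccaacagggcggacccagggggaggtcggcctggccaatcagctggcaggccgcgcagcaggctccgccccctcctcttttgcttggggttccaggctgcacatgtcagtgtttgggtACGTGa
Kdm3a: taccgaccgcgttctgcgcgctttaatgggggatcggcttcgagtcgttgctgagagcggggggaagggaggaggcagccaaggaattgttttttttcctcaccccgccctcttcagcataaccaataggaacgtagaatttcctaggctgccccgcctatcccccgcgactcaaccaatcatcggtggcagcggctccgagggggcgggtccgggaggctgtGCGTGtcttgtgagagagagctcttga
Pfkp: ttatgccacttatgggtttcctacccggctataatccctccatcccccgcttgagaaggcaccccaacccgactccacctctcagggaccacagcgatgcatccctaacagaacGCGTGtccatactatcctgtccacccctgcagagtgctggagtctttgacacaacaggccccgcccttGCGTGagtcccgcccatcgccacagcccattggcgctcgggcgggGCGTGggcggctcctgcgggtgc
Aldoc: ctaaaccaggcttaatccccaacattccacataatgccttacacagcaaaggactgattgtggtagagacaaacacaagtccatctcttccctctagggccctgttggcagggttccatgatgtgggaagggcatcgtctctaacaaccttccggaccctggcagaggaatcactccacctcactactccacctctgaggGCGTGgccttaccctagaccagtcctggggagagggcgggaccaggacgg
Eno2: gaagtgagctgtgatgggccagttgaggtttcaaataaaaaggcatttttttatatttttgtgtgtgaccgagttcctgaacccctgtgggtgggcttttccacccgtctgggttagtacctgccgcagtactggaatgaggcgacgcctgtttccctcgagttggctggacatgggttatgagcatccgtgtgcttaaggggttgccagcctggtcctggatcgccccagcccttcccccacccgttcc
Ldha: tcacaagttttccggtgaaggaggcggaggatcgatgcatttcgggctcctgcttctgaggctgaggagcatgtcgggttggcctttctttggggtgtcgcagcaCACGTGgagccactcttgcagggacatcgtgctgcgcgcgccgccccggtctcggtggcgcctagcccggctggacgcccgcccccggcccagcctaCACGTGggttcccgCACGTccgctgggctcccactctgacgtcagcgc
Pgk1: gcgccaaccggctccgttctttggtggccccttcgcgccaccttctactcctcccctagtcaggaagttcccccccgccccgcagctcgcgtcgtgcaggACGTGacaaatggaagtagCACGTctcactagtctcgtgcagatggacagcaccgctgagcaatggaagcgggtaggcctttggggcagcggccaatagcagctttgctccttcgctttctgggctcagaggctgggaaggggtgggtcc

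Ankrd37, Pfkp and Ldha each held 3 matches to the core in this stretch, Pgk1 held 2, and Kdm3a and Aldoc held 1. Eno2 held 0, so members with and without the core both occur among the genes that stood apart. Of 49 windows of 300 bases around the starts of 32 members, 37 (75.5%) held the core, against 43.8% of all 32851 windows. Windows of a gene can overlap, and the windows compared were not matched for base composition. The Snail-type E-box was in 8 of the 49 windows (16.3%), against 20.2% of all windows. A match to these letters is a description and does not show binding. Slc2a3 and Ndrg1 had no window here.

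Across the arrays 10955 genes were above a floor of 3.19, the 40th percentile of all values, on at least 1 array. Snai1 read 2.56, 2.42, 1.88 and 1.94, under the floor throughout, and thus gives no check of the genotype. Kdr, which encodes Flk1, read 8.92, 4.55, 9.03 and 3.88, high in the fractions labelled Flk1+. As a yardstick of noise, 79 chemosensory receptor genes that should be silent here had differences with an SD of 0.13 to 0.17, which does not replace replicates. A difference is counted at 2-fold (1 on the log2 scale) or at 1.5-fold (0.58). A lower level in a fraction can come from fewer cells of a type or from less RNA per cell, which cannot be told apart in bulk samples.

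Of the 30 measured members, 28 were above the floor on all 4 arrays. The exceptions were Car9, a carbonic anhydrase that is a classical HIF target, and Adm, the gene of the vasodilator adrenomedullin. Car9 read between 2.33 and 2.70 and Adm between 2.40 and 2.61, so neither had a signal above the floor in any group. All counts below are over the 28 other members.

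**Figure D1:**
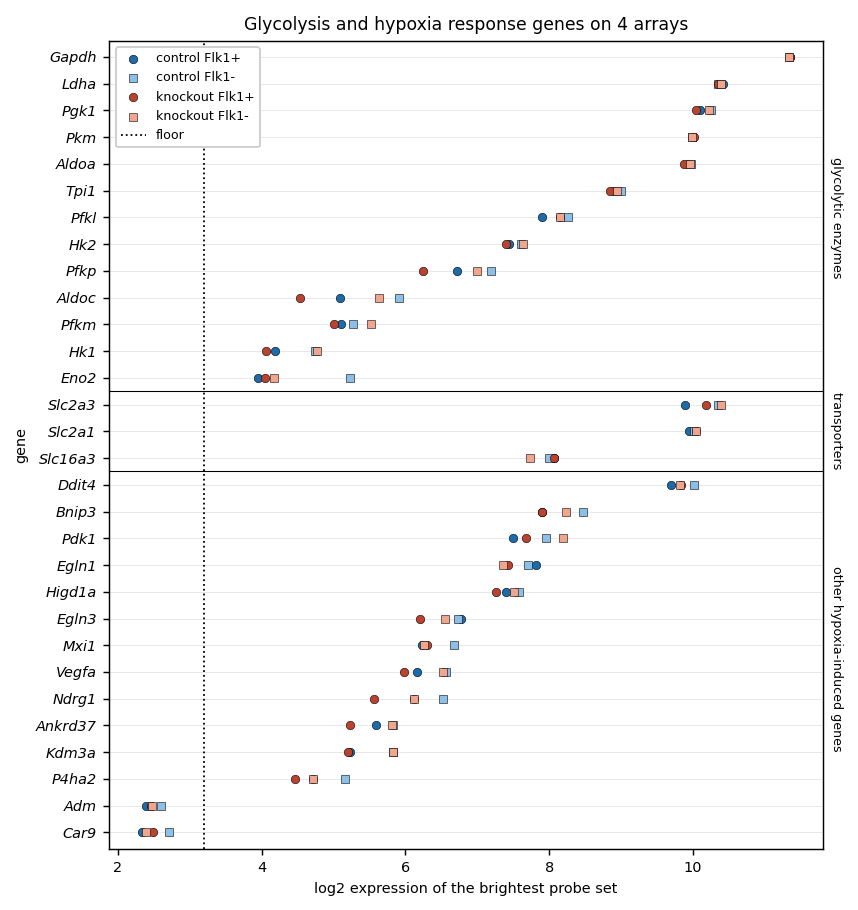
Log2 expression of the 30 measured members on each of the 4 arrays (1 point per array), grouped by role, with the floor of 3.19 as a dotted line. Positions of different genes are signals of different probe sets and are not levels to be compared. Points of Gapdh, Pkm and Ldha nearly coincide, while Aldoc, Pfkp, Ndrg1 and Eno2 spread over about 1 log2 unit or more.

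The clearest pattern was by sort. In control cells 22 of the 28 members were lower in Flk1+ than in Flk1- cells, against 51.7% of all genes above the floor, and in knockout cells 21 of 28 were, against 58.6%. The same 19 genes were lower in both genotypes, against 37.3% of all genes: 9 enzymes, 2 transporters and 8 of the other hypoxia-induced genes. These counts take a difference of any size and rest on the brightest probe set. In control and knockout cells Slc2a1 (-0.07 and -0.004), Aldoa (-0.03 and -0.08) and Tpi1 (-0.09 and -0.10) were within the noise yardstick. Among 14 members with several probe sets of mean signal above the floor, 10 had the same sign on all of them in control cells. In knockout cells 5 of the 14 did. These sort comparisons share no array. For 17 of 28 members both Flk1+ arrays read below both Flk1- arrays, against 29.2% of all genes, and for 2 members, Gapdh and Slc16a3, both read above, against 19.7%. The sizes were modest, with a median difference of -0.28 in control and -0.23 in knockout cells, beside -0.01 and -0.08 over all genes. Centring the arrays by their median detected gene gave 15 members lower in both genotypes, against 26.8% of all genes. It raised the knockout sort median of all genes from -0.08 to 0.09, and 16 of 28 members were then lower in knockout Flk1+ cells, against 41.5% of all genes. The control count stayed at 22, against 46.5%.

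**Figure D2:**
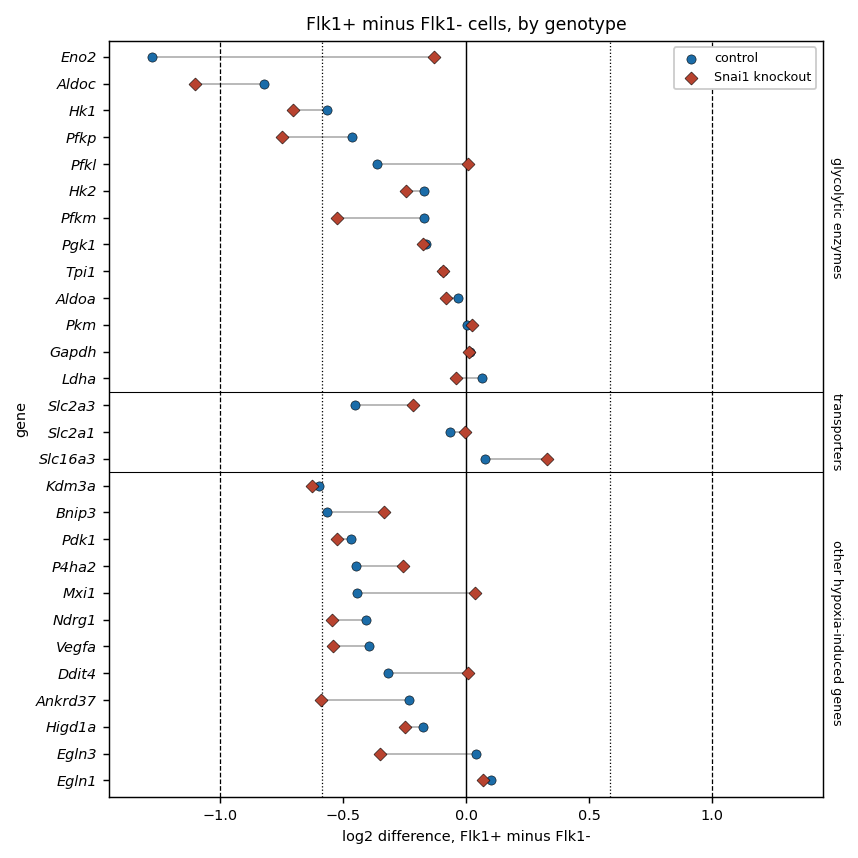
Difference between Flk1+ and Flk1- cells (log2) for the 28 members above the floor, in control cells (circles) and Snai1 knockout cells (diamonds). Dotted lines mark 1.5-fold and dashed lines 2-fold. Most points lie left of 0, Aldoc and Kdm3a lie far left in both genotypes, and Eno2 lies far left in control cells alone (-1.28 against -0.13).

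Glucose enters the cell through the transporters encoded by Slc2a1 and Slc2a3. Slc2a3, the high-affinity form, was at 9.89 and 10.34 in control Flk1+ and Flk1- cells and at 10.18 and 10.40 in the knockout. Both Flk1+ arrays were thus the lower ones, by -0.45 in control and -0.21 in knockout cells. Over its 4 probe sets the control difference ran from -0.82 to -0.37. In knockout cells they ran from -0.33 to 0.05, so the knockout value has no single direction over probe sets. Slc2a1, the widespread form, read 9.95, 10.01, 10.04 and 10.04, a range within the noise yardstick. Slc16a3, which exports lactate, was the transporter that ran the other way, at 8.07 and 7.99 in control and 8.07 and 7.74 in knockout cells, or 0.08 and 0.33 higher in Flk1+ cells.

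The first committed steps are run by hexokinase and phosphofructokinase. Hk1, one of the hexokinases that trap glucose in the cell, was at 4.18 and 4.75 in control Flk1+ and Flk1- cells and at 4.06 and 4.76 in knockout cells. The fractions did not overlap and the genotypes nearly coincided on this probe set, with sort differences of -0.56 and -0.70. A second probe set gave -0.77 and -0.59. There the genotypes differed by 0.24 in Flk1+ cells, between values under the floor (2.83 and 3.06). Hk2, the hexokinase that HIF induces, differed by -0.17 and -0.24. Pfkp, the platelet-type phosphofructokinase, was at 6.72 and 7.19 in control and at 6.25 and 6.99 in knockout cells. Its sort difference was -0.46 in control and -0.75 in knockout cells, and its second probe set gave -0.14 and -0.28. The muscle and liver forms went different ways: Pfkm differed by -0.17 in control and -0.53 in knockout cells, and Pfkl by -0.36 and 0.01.

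Aldolase and enolase each have a widespread form and one typical of neural tissue. The neural aldolase differed between fractions in both genotypes and the neural enolase in control cells. The widespread aldolase differed by no more than 0.08 on its brightest probe set, and the widespread enolase was not analysed here. Aldoc, the brain aldolase, was at 5.08 and 5.91 in control Flk1+ and Flk1- cells and at 4.53 and 5.63 in knockout cells. Both Flk1+ arrays read below both Flk1- arrays, 1.77-fold in control and 2.15-fold in knockout cells. Its second probe set, at about 2 on every array, was below the floor. Eno2, the neuronal enolase, read 3.95, 5.23, 4.04 and 4.17. The control Flk1- array alone was high. Eno2 was 2.43-fold lower in Flk1+ than in Flk1- control cells and 1.09-fold lower in the knockout, where the sign turned after centring (0.02). Aldoa, the widespread aldolase, differed by -0.03 and -0.08. Over its 4 probe sets the differences ran from -0.09 to 0.01 in control and from -0.08 to 0.07 in knockout cells, without a single direction.

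The remaining enzymes differed least. Gapdh, the dehydrogenase in the middle of the pathway, read 11.35, 11.34, 11.36 and 11.34. Pkm, the pyruvate kinase that makes pyruvate, read 9.99, 9.98, 10.02 and 9.99, and Ldha, the lactate dehydrogenase subunit typical of hypoxic cells, 10.41, 10.35, 10.35 and 10.39. Pgk1, which makes ATP in the lower part of the pathway and is a standard HIF target, was at 10.09 and 10.25 in control and 10.05 and 10.22 in knockout cells. Both its Flk1+ arrays read below both its Flk1- arrays, by -0.16 and -0.17. A second probe set of Pgk1, with a mean signal of 9.91, gave -0.02 and 0.02. Tpi1, the triose isomerase, differed by -0.09 and -0.10. Over the 6 enzymes with a mean signal above 8.5 (Aldoa, Tpi1, Gapdh, Pgk1, Pkm and Ldha), no difference in the 4 comparisons was larger than 0.175. The other 7 reached 1.28, and all 7 were lower in control Flk1+ than in control Flk1- cells.

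Small differences at high signal were not particular to these enzymes. Among all genes with a mean signal of 10 to 12, the SD of the control sort difference was 0.083 over 85 genes, against 0.35 over 2298 genes at 6 to 8 and 0.46 over 4871 genes at 4 to 6. None of the 85 genes reached 1.5-fold in that comparison (0%). The members at 10 to 12 had a median difference of -0.07 and those at 4 to 6 one of -0.56. Of the members at 10 to 12, Slc2a3 lay furthest out, at -0.45.

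**Figure D3:**
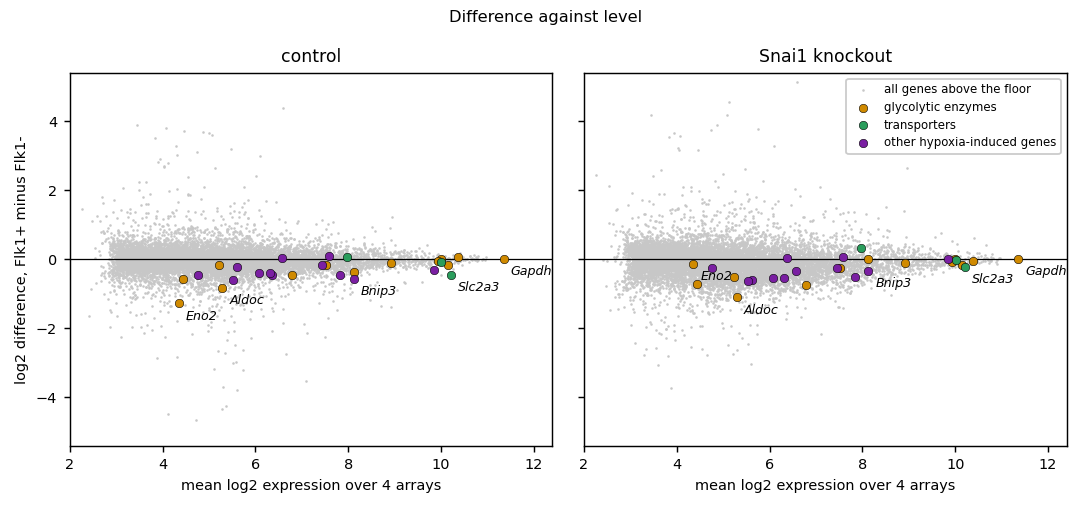
Mean log2 expression over the 4 arrays (horizontal) against the difference between Flk1+ and Flk1- cells (log2, vertical), in control (left) and Snai1 knockout cells (right). Grey points are all genes above the floor and coloured points the members by role. The cloud narrows to the right, where Gapdh and Slc2a3 lie, while Aldoc lies at the lower side of a wide cloud.

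Among the other hypoxia-induced genes 10 of 12 were lower in Flk1+ cells of the control, with a median of -0.40, and 9 of 12 in the knockout, with a median of -0.34. The knockout median was -0.19 after centring or cyclic loess and -0.20 after quantile normalization. The direction in the knockout held for 9 of 12 after that centring too, whereas 6 of the 13 enzymes were then lower, in place of 10, and 1 of 3 transporters in place of 2. Kdm3a, a histone demethylase that HIF induces, was at 5.23 and 5.83 in control Flk1+ and Flk1- cells and at 5.20 and 5.83 in the knockout. Both Flk1+ arrays read below both Flk1- arrays, by -0.60 and -0.63, and the genotypes differed by -0.03 in Flk1+ cells. Bnip3, which promotes the removal of mitochondria, was at 7.90 and 8.46 in control and at 7.90 and 8.23 in knockout cells. Pdk1, the kinase that keeps pyruvate out of the mitochondria, was at 7.49 and 7.96 in control and at 7.67 and 8.20 in knockout cells. Both genes were lower on each Flk1+ array, Bnip3 by -0.57 and -0.34 and Pdk1 by -0.47 and -0.52. The third and dimmest probe set of Pdk1 gave -0.28 and 0.05.

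Vegfa encodes the ligand of Flk1 itself. It was at 6.17 and 6.56 in control Flk1+ and Flk1- cells and at 5.98 and 6.52 in knockout cells. The cells that carried the receptor thus had the lower reading of the ligand gene in both genotypes, by -0.40 and -0.54. A second probe set gave -0.43 in control and 0.02 in knockout cells. Ankrd37, a small ankyrin repeat gene strongly tied to HIF, read 5.59, 5.83, 5.22 and 5.81 and differed by -0.23 and -0.59, and P4ha2, a collagen prolyl hydroxylase subunit, by -0.45 and -0.26. Ndrg1, a stress-induced gene of the N-myc downstream family, differed by -0.41 and -0.55, and Higd1a, a mitochondrial protein gene, by -0.17 and -0.25. Ddit4, which restrains mTORC1, and Mxi1, an antagonist of Myc, differed by -0.32 and 0.01 (Ddit4) and by -0.44 and 0.04 (Mxi1). The second probe set of Mxi1 gave -0.43 and -0.26. The oxygen sensor genes had no single direction: Egln1 differed by 0.10 and 0.07 and Egln3 by 0.04 and -0.35, while their second probe sets gave -0.34 and -0.15, and -0.25 and -0.28.

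At the larger size rule few members stood apart by sort. In control cells Eno2 was the 1 member at least 2-fold lower of 28, against 1.51% of all genes. Eno2, Aldoc and Kdm3a were at least 1.5-fold lower, against 4.76%. When probe sets ending in _s_at or _x_at were left out, Slc2a3 joined them (-0.61), making 4 of 25, against 4.68%. With the mean of probe sets the 3 were Hk1 (-0.67), Eno2 and Kdm3a, against 3.53%. In knockout cells Aldoc was the 1 member at least 2-fold lower, against 2.17%. Aldoc was under 2-fold after centring, after quantile normalization or cyclic loess, and with the mean of its probe sets. At 1.5-fold 5 of 28 were lower (Aldoc, Pfkp, Hk1, Kdm3a and Ankrd37), against 10.6% of all genes. After centring 2 were (Pfkp and Aldoc), against 5.76%, and 2 (Hk1 and Aldoc) after quantile normalization, against 7.46%, or cyclic loess, against 7.66%. Under these scalings Kdm3a was also under 1.5-fold in control cells. With the mean of probe sets 3 members passed 1.5-fold in knockout cells (Hk1, Ankrd37 and Kdm3a), against 7.73%. No member was 1.5-fold higher in Flk1+ cells in either genotype (0 of 28), against 3.48% and 4.35%.

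Markers of other cells moved with the sort. The pluripotent list, of which 11 of 12 genes were measured, had 6 above the floor in control Flk1+ cells and 11 in control Flk1- cells, at mean levels of 3.62 and 5.91. In knockout cells it had 8 and 11, at 4.68 and 6.72. Nanog, for instance, was at 3.38 and 6.57 in control Flk1+ and Flk1- cells and at 5.41 and 7.57 in knockout cells. Of 9 measured erythroid genes, 6 were above the floor in the control Flk1+ fraction and 9 in its Flk1- fraction, at mean levels of 3.77 and 6.41. In the knockout 3 and 2 were, at 2.68 and 2.66, with Klf1, Hba-x, Hbb-bh1 and Hbb-y below the floor in both fractions. The part of pluripotent and of erythroid cells in the sort differences was not tested. The hemato-endothelial list ran the other way: of 10 genes, 10 and 3 were above the floor in the Flk1+ and Flk1- fractions of the control, and 9 and 4 in those of the knockout.

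The second question was what differs without Snai1, a transcriptional repressor. In Flk1+ cells 19 of the 28 members were lower in the knockout, against 57.4% of all genes. None was 1.5-fold apart (0 of 28), against 7.68% of all genes, and none 2-fold apart, against 1.85%. With the mean of its probe sets Pfkp passed 1.5-fold there (-0.59). When probe sets ending in _s_at or _x_at were left out, Slc2a3 passed it in the other direction (0.72). In Flk1- cells 18 of 28 were lower, against 43.1% of all genes. These counts turned on the scaling: after centring 11 of 28 were lower in Flk1+ cells, against 47.0% of all genes, and 26 of 28 in Flk1- cells, against 53.6%. With centring the lower enzymes went from 9 to 4 of 13 in Flk1+ cells and from 7 to 12 in Flk1- cells. Lower transporters went from 1 to 0 of 3 and from 1 to 3. The other hypoxia-induced genes moved less, from 9 to 7 of 12 and from 10 to 11. In the values as deposited 14 members were lower in both fractions, against 26.6% (10 after centring, against 27.0%). The median difference was -0.05 in either fraction, beside -0.05 and 0.04 over all genes. By role, the medians in Flk1+ and Flk1- cells were -0.06 and -0.01 for enzymes, 0.09 and 0.03 for transporters and -0.16 and -0.18 for the other hypoxia-induced genes. Markers moved with the genotype too. The mean of 10 cardiac and lateral mesoderm markers was 5.93, 5.95, 4.48 and 3.99, with 8, 9, 7 and 7 above the floor. The mean of 8 genes listed as fibroblast markers was 3.75, 2.99, 2.70 and 2.55. Col1a2, Dcn, Lum and Thy1 were below the floor on every array. In Flk1+ cells the other 4, Col1a1, Col3a1, Postn and Twist2, differed by -2.55 to -1.40. The knockout values of Col3a1, Postn and Twist2 were under the floor there. The mean of 8 endoderm markers was 4.94, 5.25, 5.12 and 5.05. In Flk1+ cells 4 of these 8 were higher and 4 lower in the knockout, from -2.10 (Ttr) to 2.18 (Cer1). The part of cardiac, fibroblast and endoderm cells in the genotype differences was not tested.

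**Figure D4:**
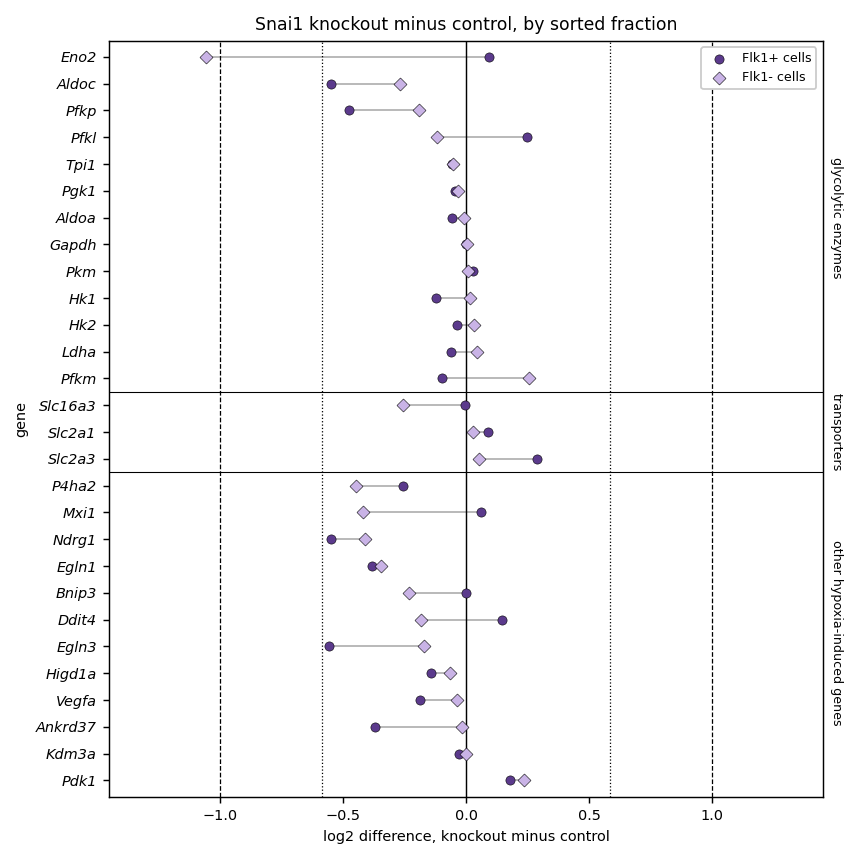
Difference between Snai1 knockout and control cells (log2) for the 28 members above the floor, in Flk1+ cells (circles) and Flk1- cells (diamonds). Dotted lines mark 1.5-fold and dashed lines 2-fold. The bright enzymes lie near 0, Eno2 in Flk1- cells is the only point past 2-fold (-1.06), and Ndrg1, Egln1, Egln3 and Aldoc lie left of 0 in both fractions.

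Eno2 was the 1 member at least 2-fold lower in knockout Flk1- cells, against 0.949% of all genes, and the only one at least 1.5-fold lower, against 2.53%. It was 2.08-fold lower there (4.17 against 5.23) and 0.09 higher in knockout Flk1+ cells (4.04 against 3.95). No second probe set of Eno2 was named. Erythroid genes were likewise high on the control Flk1- array, and Hba-x read 5.11, 9.77, 1.97 and 2.01. Their part in the Eno2 value was not tested, nor was that of the day 5 label of the knockout Flk1- sample.

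For 3 of 28 members both knockout arrays read below both control arrays, against 15.2% of all genes, and all 3 were hypoxia-induced genes. Egln1, the main HIF prolyl hydroxylase, was at 7.81 and 7.71 in control Flk1+ and Flk1- cells and at 7.43 and 7.36 in knockout cells. Egln3, a prolyl hydroxylase that HIF itself induces, was at 6.77 and 6.73 in control cells and at 6.21 and 6.56 in knockout cells. Ndrg1 was at 6.119 and 6.53 in control and at 5.57 and 6.115 in knockout cells. Its order thus rests on a near tie of control Flk1+ and knockout Flk1- cells, well within the noise yardstick. The second probe sets of Egln1 and Egln3 also read lower in the knockout, by -0.26 and -0.45 for Egln1 and by -0.47 and -0.44 for Egln3. The share of members was under that of all genes, so this order is not common among them.

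Aldoc and Pfkp differed in Flk1+ cells by -0.55 and -0.48 and in Flk1- cells by -0.27 and -0.19. The second probe set of Pfkp gave -0.70 and -0.55. In the other direction, both knockout arrays read above both control arrays for Slc2a1 and Pkm, 2 of 28 members against 12.5% of all genes, with differences of 0.01 to 0.09. In Flk1- cells both turned after centring, to -0.03 and -0.05. Pdk1 differed by 0.18 and 0.23, but by -0.04 and -0.04 with the mean of its probe sets. Slc2a3 was 0.29 higher in knockout Flk1+ cells on its brightest probe set, and its dimmer ones gave up to 0.72.

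The knockout Flk1+ array had the lowest reading of the 4 for 16 of the 28 members, against 34.4% of all genes, and the control Flk1- array the highest for 15, against 16.6%. The signal of the Gapdh control probe sets at the 3′ end minus that at the 5′ end, which grows as RNA breaks down, was 2.05, 1.76, 1.47 and 1.99. It was smallest on the knockout Flk1+ array, and its part in these readings was not tested. The 3′ control probe set of Gapdh ran from 10.66 to 10.72 and the probe set of the gene from 11.34 to 11.36. The middle and 5′ control probe sets varied more, from 9.76 to 10.02 and from 8.67 to 9.25.

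The difference of differences, which takes the genotype difference of the Flk1- fraction from that of the Flk1+ fraction, was at least 1 in size for 1 member, Eno2, at 1.15, against 0.749% of all genes in that direction. It ran from 1.15 to 1.27 over the alternatives. No other member reached 1.5-fold on its brightest probe set in the values as deposited. Over all genes 3.93% were at least 1.5-fold higher and 6.95% at least 1.5-fold lower. The next were Mxi1 at 0.48 (0.63 after cyclic loess) and Egln3 at -0.39. Slc2a3, at 0.24, was at 0.65 when probe sets ending in _s_at or _x_at were left out. These are single values from 4 arrays and were not tested.

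Of 15 measured genes of the machinery that senses oxygen, 0 were 1.5-fold apart between genotypes in Flk1+ cells, against 7.68% of all genes. Between control fractions 0 were, against 4.76% lower and 3.48% higher. Between knockout fractions Cited2 was higher (0.86), against 4.35% of all genes, and Epas1 lower, against 10.6%. Counts this small are near those shares. Hif1a, the main HIF alpha subunit, named here for its role after its values were seen, read between 6.97 and 7.16 on the 4 arrays. Epas1, which encodes HIF-2 alpha and is typical of endothelium, was at 5.96 and 5.74 in control and at 5.39 and 6.14 in knockout cells, or -0.74 by sort in the knockout. Its genotype differences were -0.56 in Flk1+ and 0.40 in Flk1- cells. Cited2, a HIF-induced inhibitor of HIF, was at 7.88, 7.93 and 7.71 on the first 3 arrays and at 6.85 in knockout Flk1- cells, -1.08 from the control. It was the 1 gene of the list of 15 that was 1.5-fold lower there, against 2.53% of all genes.

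Other genes of glucose and pyruvate use gave a mixed picture. In control cells 2 of 26 above the floor were 1.5-fold lower in Flk1+ cells, Slc16a1, a lactate and pyruvate transporter, at -0.68 and Ldhb, the lactate dehydrogenase subunit of well-oxygenated tissue, at -0.65. In knockout cells 6 of 26 had such a difference, of which Pdhx was shown to be at least 1.17-fold lower since its Flk1+ value was under the floor. Among the 6 were Ldhb at -1.02, Adpgk, an ADP-dependent glucokinase, at -0.71 and Dlat, a pyruvate dehydrogenase subunit, at -0.69. The shares over all genes were 4.76% in control and 10.6% in knockout cells. None of the list was 1.5-fold higher in Flk1+ cells in either genotype, against 3.48% and 4.35% of all genes. Ldhb was at 8.20 and 8.85 in control and at 8.20 and 9.22 in knockout cells, so it differed by fraction, while Ldha differed by 0.07 and -0.04. By genotype, Bpgm, which makes a regulator of hemoglobin, was 0.61 higher and Pdp2, a pyruvate dehydrogenase phosphatase, differed by -0.67 in Flk1+ cells, each 1 of 25. Over all genes 3.26% were 1.5-fold higher there and 4.42% lower, so these counts are near the shares. In Flk1- cells 1 of 27 had a difference past 1.5-fold, Pfkfb4 (-0.75), against 2.53% of all genes lower. Its knockout value was under the floor, so that it was shown to be at least 1.32-fold lower.

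In the pentose phosphate pathway, which branches from glycolysis, Rpia was the 1 of 9 genes 1.5-fold lower in control Flk1+ cells, against 4.76% of all genes. This isomerase of ribose phosphate was at 3.78 and 4.82 in control Flk1+ and Flk1- cells and at 3.56 and 4.42 in knockout cells, differing by -1.04 and -0.86. Prps1, which makes the activated ribose of nucleotides, differed by -0.60 in knockout cells. Between genotypes 0 of 9 were 1.5-fold apart in Flk1+ cells, against 7.68% of all genes, and 0 of 9 in Flk1- cells, against 2.53% lower and 2.97% higher, so the counts are near these shares.

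A further list of hypoxia-induced genes outside the 34 was lower in Flk1+ cells for 24 of 32 genes in control and 17 of 32 in knockout cells, against 51.7% and 58.6% of all genes. Its medians were -0.11 and -0.07, beside -0.01 and -0.08 over all genes, so that in the knockout the list lay no lower than all genes. At 1.5-fold 3 and 4 were lower, against 4.76% and 10.6%, and 2 and 2 higher, against 3.48% and 4.35%. Of the lower ones Gbe1 in control cells had its Flk1+ value under the floor. Tfrc, the transferrin receptor, was at 7.52 and 8.42 in control and 7.46 and 8.23 in knockout cells. Kdm4c, a histone demethylase, was at 4.23 and 5.15 in control and 4.41 and 5.77 in knockout cells. Both were lower in Flk1+ cells in either genotype. Vldlr, a lipoprotein receptor, went the other way, at 6.43 and 5.38 in control and 5.43 and 5.01 in knockout cells, 1.05 and 0.42 higher in Flk1+ cells. Plod1, a lysyl hydroxylase of collagen, was 0.84 higher in Flk1+ knockout cells, and Car12, a carbonic anhydrase, at least 1.62-fold lower.

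By genotype, 4 of 31 genes of that list were 1.5-fold lower in knockout Flk1+ cells and 0 higher. The shares over all genes were 4.42% and 3.26%. Vldlr, with the values above, was the largest, Ppfia4 differed by -0.62 and Fosl2, an AP-1 subunit, by -0.61. In knockout Flk1- cells Loxl2, a lysyl oxidase that crosslinks collagen, differed by -0.77 and Plod2, another lysyl hydroxylase, by -0.63, the 2 lower genes of 32, against 2.53% of all genes. Kdm4c was the 1 higher gene, at 0.62, against 2.97%. The difference of differences was largest for Fosl2 at -0.86, Slc6a8, the creatine transporter, at 0.81 and Stc2 at 0.79, without a test.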

How the data were processed

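The values are log2 expression of 45141 probe sets on 4 Affymetrix arrays, as the authors deposited them. RMA and limma were used by the authors per the submitters' processing notes, with no version or role. The RNA input was 50 ng, with amplified, biotin-labelled cDNA, per the labels' protocols. No scanner intensities were used here, so the number of arrays limits the precision.

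Gene values exclude 104 control probe sets. Of the rest, 28898 were paired with 1 gene, 551 with several and 15588 with none in the annotation used here. Of 17097 genes, 16937 matched a RefSeq gene identifier. Genes were counted in a comparison when above the floor on at least 1 of its arrays, and where the lower value was under the floor, the fold is a bound. Differences were computed with Python 3.11.15 and pandas 2.3.3, and cyclic loess (span 0.3, 3 rounds) with limma 3.58.1. The counting was tested on simulated data. Members with a difference of 1.5-fold or more are given on all 4 arrays, and up to 3 genes of each pathway list per comparison are named by the same size. The members and lists were chosen with earlier results of these data known.

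The alternatives were 1.5-fold and 3-fold rules, no floor or a higher one at the median, centring each array by its median detected gene, cyclic loess, a second quantile normalization, averaging a gene's probe sets, leaving out _s_at and _x_at probe sets, and raising low values to the floor.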

Additional observations from a re-analysis of the deposited data

Results flagged for a closer look

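For Eno2, the neuronal enolase gene, the knockout minus control values of the sorted fractions had opposite signs: 0.09 in Flk1+ cells and -1.06 in Flk1- cells. The value in Flk1+ cells is under the SD of 0.15 of silent receptor genes, so no direction is read from it. The difference between the fractions was not tested, since there was 1 array per group. The value in Flk1- cells ran from -1.11 to -1.03 over the alternatives and that in Flk1+ cells from 0.09 to 0.15.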

How the results depend on the processing

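No paired analysis was possible because each group has 1 array, so that the groups share fewer than 2 replicate numbers. An additive fit over the genotypes was not run. Replicates could not be left out. By sort in control cells 3 members passed 1.5-fold and 0 passed 3-fold, in place of 1 at 2-fold, all of them lower. By sort in knockout cells 5 passed 1.5-fold and 0 passed 3-fold, all lower, in place of 1. That 1, Aldoc, was under 2-fold with arrays centred on the median, with quantile normalization again, with cyclic loess and with the mean of its probe sets, which left 0 members. With the mean of its 2 probe sets, of which the second is below the floor, Aldoc was at -0.45 by sort in control and -0.58 in knockout cells, and Pfkp at -0.52 in knockout cells. By genotype in Flk1- cells, and in the difference of differences, 0 members passed 3-fold in place of 1. Centring turned the median of enzymes from -0.13 to 0.02 by sort in the knockout and from -0.06 to 0.01 by genotype in Flk1+ cells, and that of transporters from 0.03 to -0.03 by genotype in Flk1- cells. The sort median of transporters in the knockout became 0.15, and the medians of enzymes and of the other hypoxia-induced genes in the difference of differences turned from -0.05 to 0.07. The number of members lower in Flk1+ cells in both genotypes was 15 to 20 and of those lower in the knockout in both fractions 10 to 15. No difference of 1.5-fold or more turned its sign. Probe sets ending in _s_at or _x_at were the only ones for Gapdh, Aldoa and Ndrg1, which had no value without them. A fold with a value under the floor is a bound. The spread of differences over all genes narrowed toward the bright end, and whether the signal limits differences there was not tested.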
